A study of Mus musculus with 30 samples.

Results

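The MHC class II presentation genes were examined by their normalized read counts in 30 libraries of sorted mouse mammary epithelial cells. The members were chosen by name as Cd74, H2-Aa, H2-Ab1, H2-Eb1, H2-DMa and Ciita, with Ptprc (CD45) as a check for leukocyte RNA. Of these 6 genes, 5 were among the 11137 genes of the deposited table. Ciita and Ptprc were not, and they are not analysed here. The table keeps genes above 10 normalized counts in 25% of the libraries, and 3 members met this through the basal libraries, in which they are high. Cd74 was above 10 in 0 luminal and 15 basal libraries, H2-Aa in 1 and 13, and H2-Eb1 in 3 and 11, against 9 and 15 for H2-Ab1 and 9 and 10 for H2-DMa.

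MHC class II molecules are heterodimers of an alpha and a beta chain that carry peptides from the endosome to the cell surface, where CD4+ T cells read them. Cd74, the invariant chain, escorts new heterodimers to the endosome and blocks their groove, and the H2-DM heterodimer then exchanges the remaining Cd74 fragment for peptide. Dendritic cells, macrophages and B cells express class II constitutively, and epithelial cells can express it after interferon-gamma, which induces the coactivator Ciita. The promoters of class II genes share an X box, bound by the RFX complex, and a Y box, bound by NF-Y, on which the Ciita protein assembles.

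Libraries were made from GFP+ luminal (CD24 high, CD49f low) and basal (CD24 low, CD49f high) cells of single female mice of mixed background, after lymph nodes were removed and CD45+ and CD31+ cells were excluded by FACS. K8imTmG mice (K8rta:TETO CRE:mTmG) carry a Cre that doxycycline switches on under the Krt8 promoter and a reporter that turns from Tomato to GFP, and they keep Rank. K8iΔRank mice (K8rta:TETO CRE:RANK fl/fl:mTmG) also carry floxed Rank, which the Cre deletes in luminal cells, whereas their basal cells keep it. All mice received doxycycline at 1 mg/ml in the drinking water, from week 3 to week 8 of age by the labels and from week 4 by the study's methods. Parous glands had undergone 1 pregnancy and 30 days of involution, which by the study's methods followed lactation in K8imTmG mice but failed lactation in K8iΔRank mice. Luminal libraries numbered 3 virgin K8imTmG, 3 virgin K8iΔRank, 5 parous K8imTmG and 4 parous K8iΔRank, and basal libraries numbered 3, 4, 4 and 4 in the same order. The 30 libraries came from 17 mice, 13 of which gave both lineages.

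Depth ranged from 340445 to 3130419 deduplicated reads per library, and 1 read was worth 0.381 to 5.43 normalized counts. Class II genes were close to this limit in luminal cells, so each value rests on few reads. Libraries differed in a way the labels do not name, since Clec2d lay between 65.6 and 199 normalized counts in 14 libraries and between 0.641 and 8.68 in the other 16. The virgin K8iΔRank luminal, the virgin K8imTmG basal and the parous K8imTmG basal libraries were all on the high side, together with 2 of 5 parous K8imTmG luminal and 2 of 4 parous K8iΔRank basal libraries. The sort labels held, because all 6 luminal markers tested (Krt8, Krt18, Krt19, Epcam, Elf5, Cited1) were higher in luminal libraries by 2.27 to 5.01 on the log2 scale and all 6 basal markers (Krt5, Krt14, Krt17, Acta2, Myh11, Trp63) were lower (log2 difference -7.44 to -6.41). Tnfrsf11a, which encodes Rank, did not differ by genotype in luminal libraries beyond the replicate spread (log2 difference 0.33, SE 0.43, adjusted p = 0.687 in virgin and -0.01, SE 0.43, adjusted p = 0.992 in parous, limma), and reads from the 3′ end cannot test the loss of an internal exon. By qPCR, the study reported reduced Rank mRNA in sorted luminal GFP+ cells of K8iΔRank mice.

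Of the members, H2-Ab1 and H2-Aa encode the beta and alpha chains of the I-A molecule, H2-Eb1 the beta chain of I-E, and H2-DMa the alpha chain of the peptide editor H2-DM. These genes lie together in the class II region of chromosome 17 of GRCm39 (GENCODE vM39). H2-DMa spans 34338515 to 34358958 and H2-Ab1 34476663 to 34488393, both on the plus strand. H2-Aa spans 34493404 to 34506798 on the minus strand and H2-Eb1 34504236 to 34535648 on the plus strand. The annotated H2-Aa and H2-Eb1 genes overlap by 2563 bases at their 5′ ends on opposite strands, and the strand setting of the authors' counting is not given in the sources used here. Reads of this protocol come from 3′ ends, which lie apart in this pair.

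The promoters are shown as a description of X and Y box motifs. The part of these motifs in any difference between lineages was not tested, and H2-Ab1 had no promoter window. Promoter windows of 250 bases before to 50 after the start site (RefSeq, GRCm38.p6) were present for 4 of the 6 class II genes searched on chromosome 17, namely H2-Aa, H2-Eb1, H2-DMa and H2-DMb1, which encodes the beta chain of H2-DM. They were searched on both strands for GNAAC, a core of the X box, and ATTGG, the core of the Y box. The letters GNAAC were followed on the same strand, after 15 to 40 bases, by ATTGG in 4.23% of all 32851 promoter windows. H2-Aa, H2-Eb1 and H2-DMb1 held this pair on their own strand, with 28, 27 and 28 bases between the motifs, and neither of the 2 windows of H2-DMa held it on that strand. Capitals mark the motifs in the sequences that follow, each read 5′ to 3′ on the strand of the gene.
H2-Aa at -81, chr17:34287889-34287910, minus strand: cagctgGCAACtttgacgtcat
H2-Aa at -48, chr17:34287861-34287877, minus strand: tttctgATTGGttctgg
H2-Eb1 at -91, chr17:34305770-34305791, plus strand: taactaGCAACtgatgatgctg
H2-Eb1 at -59, chr17:34305802-34305818, plus strand: atgctgATTGGctccca
H2-DMb1 at -94, chr17:34153091-34153112, plus strand: tacctaGTAACtgatgatgcta
H2-DMb1 at -61, chr17:34153124-34153140, plus strand: tcagtgATTGGtctgac

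The first comparison asked whether class II genes differ between luminal and basal cells. H2-Ab1, which was above the table's minimum level in libraries of both lineages, was lower in luminal cells (limma across all 8 groups, adjusted p below 0.05), and H2-DMa did not pass the test. Cd74, H2-Aa and H2-Eb1 were lower as well, but a gene kept in the table through its basal libraries is favoured to lie lower in luminal ones, so their values are a description and their p-values are no evidence on how many members differ. Over all 11133 genes tested, 55.7% passed in either direction and 27% passed as lower in luminal libraries. The median log2 difference over all genes was 0.04. In bulk libraries, fewer positive cells and less RNA per cell cannot be told apart.

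Cd74 had no overlap between the lineages, within the limit of its selection through basal libraries. In the 15 luminal libraries its normalized count ran from 0 through a median of 4.80 to 9.93, and in the 15 basal libraries from 12.5 through 29.1 to 55.4. Every luminal library was below every basal library, which held for 6.14% of the genes tested. The difference on the log2(normalized count + 1) scale was -2.42 (SE 0.24, 95% interval -2.90 to -1.94, limma adjusted p = 5.47e-10). On the linear scale the basal mean of 30.9 was 6.34 times the luminal mean of 4.87. These values rest on 125 reads in all luminal and 520 in all basal libraries, and 1 luminal library had no Cd74 read at a depth where 3 reads would amount to 9.59 normalized counts.

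The alpha and beta chains followed Cd74, with some overlap between lineages. H2-Ab1 ran from 3.20 through 10.8 to 20.9 normalized counts in luminal and from 10.9 through 35.8 to 61.8 in basal libraries, a log2 difference of -1.48 (SE 0.20, adjusted p = 2.04e-07). H2-Aa ran from 0 through 3.36 to 11.5 in luminal and from 2.67 through 13.96 to 27.1 in basal libraries (log2 difference -1.84, SE 0.27, adjusted p = 1.11e-06). H2-Eb1 ran from 0 through 5.15 to 15.98 in luminal and from 2.67 through 17.2 to 41.9 in basal libraries (log2 difference -1.46, SE 0.32, adjusted p = 2.48e-04). The ranges overlapped at their ends, and the lowest basal value of both H2-Aa and H2-Eb1, 2.67, was 1 read in the same parous K8imTmG library. Of these 3 chains, H2-Aa and H2-Eb1 share the limit of Cd74, and H2-Ab1 does not. H2-Aa and H2-Eb1 were each at or under 3 reads in several libraries, 5 and 3 luminal and 2 and 4 basal ones.

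H2-DMa did not pass. It ran from 2.65 through 12.6 to 33.1 normalized counts in luminal and from 4.31 through 12.6 to 24.2 in basal libraries, so the ranges covered each other. Its log2 difference was 0.06 (SE 0.28, 95% interval -0.51 to 0.62, adjusted p = 0.881), an interval that holds none of the other 4 members' estimates. The partner chain H2-DMb1 likewise did not pass, with a log2 difference of 0.24 (SE 0.21, adjusted p = 0.332) and means of 31.5 ± 13.2 in luminal and 28.2 ± 9.5 in basal libraries (SD, n = 15 each). H2-Ea, the alpha chain of I-E, was lower in luminal libraries (log2 difference -1.34, SE 0.35, adjusted p = 0.00163). Over the 15 luminal libraries H2-Ea did not pass the filter on low values, so it shares the limit of Cd74 and its p-value is no evidence.

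**Figure D1:**
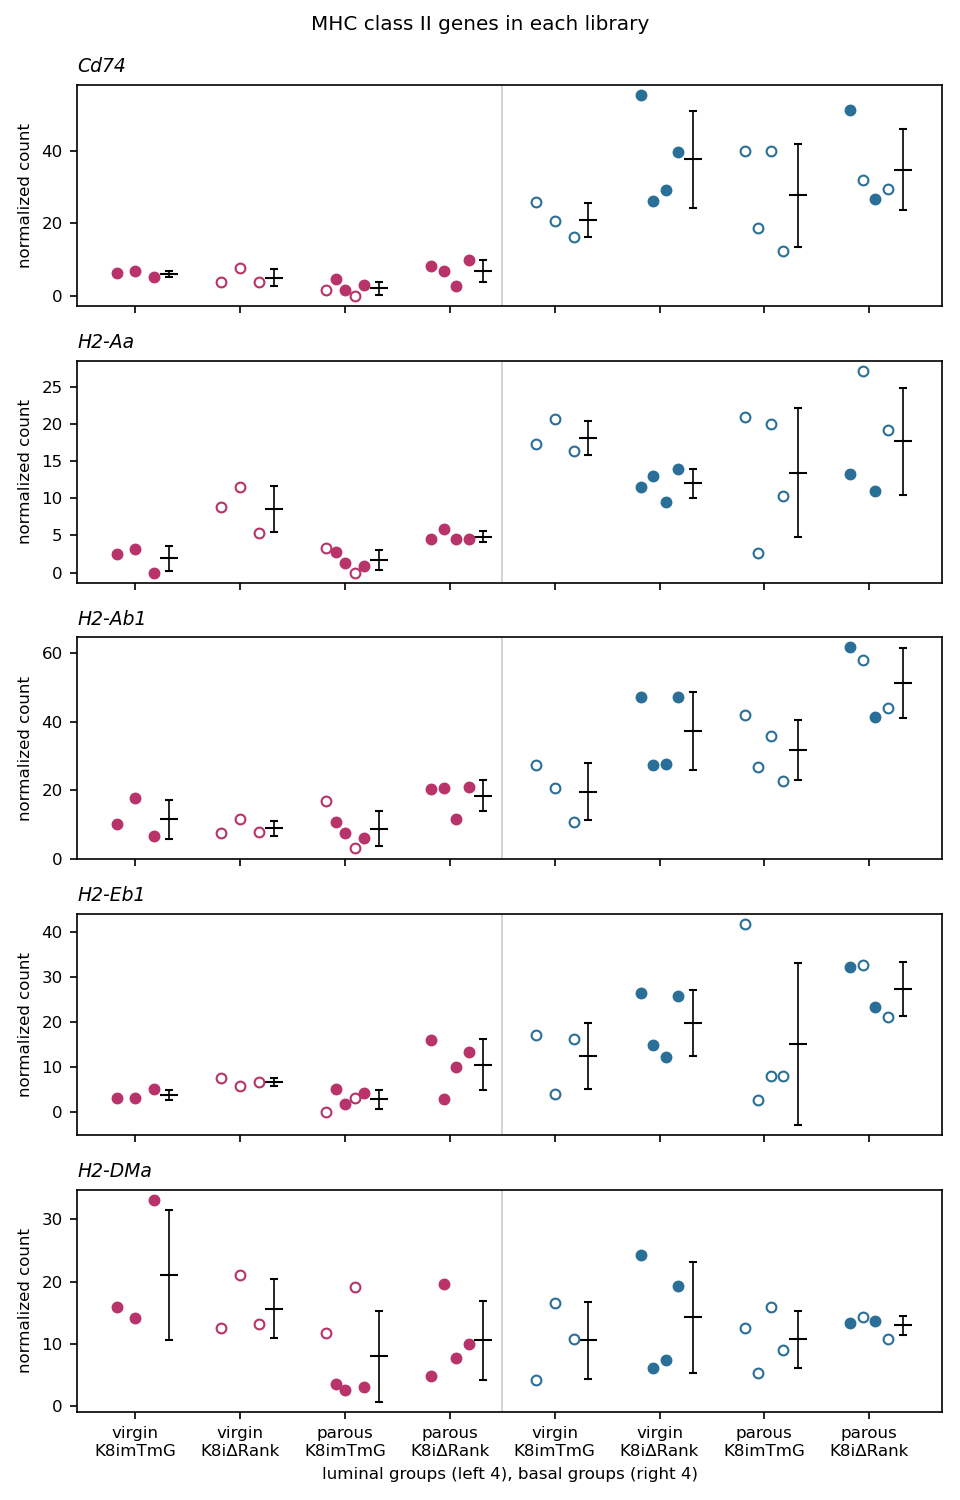
Normalized count (vertical axis, linear) of Cd74, H2-Aa, H2-Ab1, H2-Eb1 and H2-DMa in each of the 30 libraries, with luminal groups in magenta on the left and basal groups in blue on the right; open circles are libraries high in Clec2d, and black bars are the group mean ± SD (n = 3 to 5). All luminal Cd74 values lie below 10 and all basal ones above 12, whereas H2-DMa covers the same range in both lineages.

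The same libraries were also read within mice, as a description. Cd74, H2-Aa and H2-Eb1 keep the limit of their selection through basal libraries here. The share of all genes lower in every mouse was not counted. In the 13 mice with both lineages, Cd74 and H2-Ab1 were lower in the luminal library of all 13, and H2-Aa and H2-Eb1 in 12 of 13. The median within-mouse log2 difference was -2.47 for Cd74, -1.88 for H2-Aa, -1.71 for H2-Ab1 and -0.97 for H2-Eb1. H2-DMa was lower in the luminal library of 7 of the 13 mice, with a median of -0.12.

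The lineage difference could be measured on 1 side of the Clec2d split only in parous mice. The Clec2d-low side held 4 luminal and 2 basal libraries, all of K8iΔRank mice, and 3246 of 10567 genes passed there. On that side the log2 difference was -2.36 for Cd74 (adjusted p = 0.00419), -1.44 for H2-Ab1 (adjusted p = 0.00706), -1.17 for H2-Aa (adjusted p = 0.0177), -1.48 for H2-Eb1 (adjusted p = 0.0687) and -0.47 for H2-DMa (adjusted p = 0.487). The Clec2d-high side held 2 luminal and 4 basal libraries, all of K8imTmG mice, and 2348 of 10749 genes passed there. The log2 difference was -3.98 for Cd74 (adjusted p = 0.0021), -1.89 for H2-Ab1 (adjusted p = 0.0463), -2.49 for H2-Aa (adjusted p = 0.0834) and 0.54 for H2-DMa, and H2-Eb1 did not pass the filter on low values. On both sides Cd74, H2-Aa and H2-Eb1 keep the limit of their selection through basal libraries. The direction was thus the same on both sides for Cd74, H2-Ab1 and H2-Aa, while the call of H2-Aa was lost on the high side and that of H2-Eb1 on the low side.

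Most markers of other cells of the gland were lower in luminal libraries as well. Ptprc was not in the table, and 8 of 45 listed leukocyte markers were. Of these 8, Trbc2 (T cells), Cd68, Mrc1, C1qa and Lyz2 (macrophages and other myeloid cells) and Srgn were lower in luminal libraries, with log2 differences from -2.42 (Trbc2) to -1.08 (Lyz2), all with an adjusted p below 0.05. Lcp1 and Ptpn6, which the luminal libraries also held at 41.9 to 216.7 and 9.59 to 41.2 normalized counts, were higher in luminal libraries, by 4.15 and 1.48. The summed level of all 8 markers was 81.6 to 299.0 normalized counts in luminal and 87.5 to 268.6 in basal libraries, which overlapped. That of the 6 lower markers, which were picked for being lower, was 12.8 to 55.8 in luminal and 71.6 to 251.4 in basal libraries. All 6 endothelial markers (log2 difference -3.44 to -1.71) and all 6 fibroblast markers (-2.46 to -0.93) were lower in luminal libraries as well. The table's minimum level applied to all these markers too. The endothelial and fibroblast lists and 6 of the 8 leukocyte markers were thus lower in luminal libraries, as were Cd74, H2-Aa, H2-Ab1 and H2-Eb1. The part of such cells in the lineage difference was not tested.

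Within a lineage, no correlation of a class II gene with the summed leukocyte markers passed after adjustment. Each member was correlated with the summed level of the 8 markers over the 15 libraries of a lineage, 10 relations in all. In luminal libraries Pearson's r lay between -0.31 (H2-Eb1; Spearman's rho -0.10) and 0.48 (H2-DMa; rho 0.40), and in basal libraries between -0.31 (H2-Ab1; rho -0.28) and 0.38 (H2-Aa; rho 0.40). The lowest permutation p was 0.0705, for luminal H2-DMa, and the lowest adjusted p was 0.521 for r and 0.481 for rho. Without the 2 libraries farthest from the median marker level, r for these 4 relations was -0.21, 0.38, -0.13 and 0.35. Within the Clec2d-low luminal (n = 10), Clec2d-low basal (n = 6) and Clec2d-high basal (n = 9) libraries the lowest adjusted p was 0.769 (permutation tests, exact where n was under 10). Lcp1 made up most of the luminal sum. Without it, r in luminal libraries was 0.52 for Cd74 and 0.53 for H2-Ab1 (permutation p = 0.0485 and 0.0415, adjusted p = 0.243 for both), and with Ptpn6 also left out it was 0.37 and 0.47 (adjusted p = 0.432 and 0.388). Of the single markers, Mrc1 was the gene most like H2-Aa of all genes once group means were subtracted (r = 0.74 over 30 libraries, a description). In basal libraries the virgin K8imTmG group had the highest mean of the 8-marker sum (213.8 ± 65.5, SD, n = 3, against group means of 110.6 to 114.9 in the other 3) and the lowest basal mean of Cd74, H2-Ab1, H2-Eb1 and H2-DMa, but the highest of H2-Aa.

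**Figure D2:**
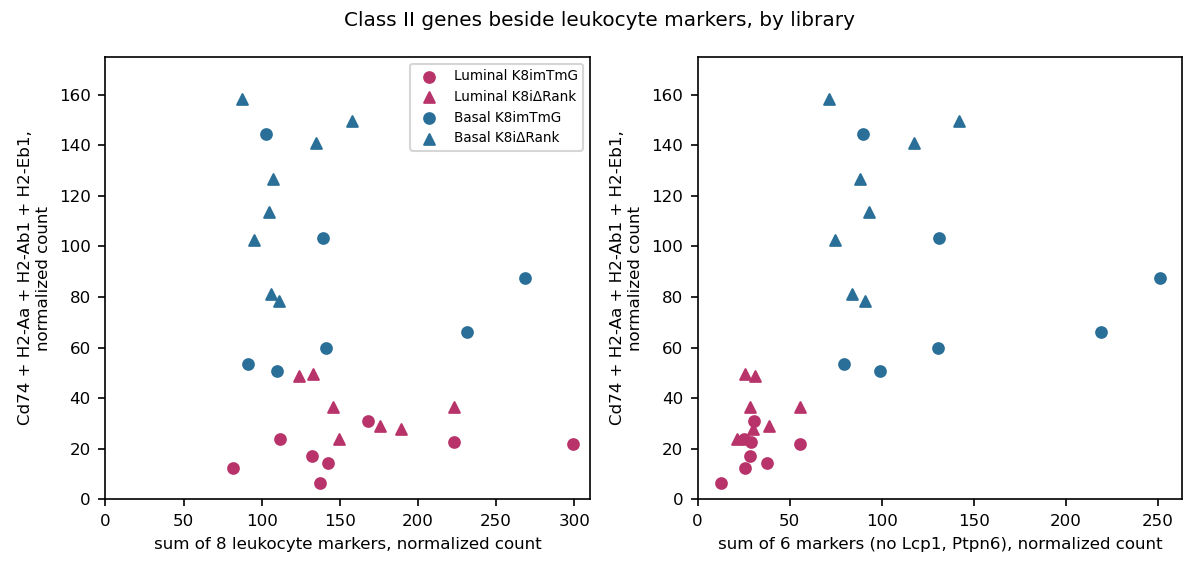
Summed normalized count of Cd74, H2-Aa, H2-Ab1 and H2-Eb1 (vertical axis) against the summed normalized count of the 8 leukocyte markers in the table (left) and of 6 of them without Lcp1 and Ptpn6 (right), 1 symbol per library; circles are K8imTmG, triangles K8iΔRank, magenta luminal, blue basal. Basal libraries have the higher class II sum, 50.8 to 158.3 against 6.39 to 49.5.

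The pathway around the members was read from a list of 39 genes, of which 27 were in the table. Between lineages 16 of these 27 passed, 7 higher and 9 lower in luminal libraries, beside 28.7% and 27% of all genes, and the median log2 difference of the list was 0.03 against 0.04 for all genes. Among the endosomal proteases, which trim Cd74 and antigens, Ctsl and Ctss (cathepsins L and S) were lower in luminal libraries by 1.70 (SE 0.15, adjusted p = 1.05e-10) and 1.11 (SE 0.25, adjusted p = 4.61e-04). Ctsh was higher by 2.38 (SE 0.13, adjusted p = 2.2e-15), Ctsd by 0.92 (SE 0.13, adjusted p = 7.03e-07), and Ifi30, the endosomal thiol reductase, by 0.53 (SE 0.20, adjusted p = 0.0216). Sppl2a, the membrane protease that clears the Cd74 stub, was higher by 1.24 (SE 0.16, adjusted p = 8.33e-08). The proteases thus moved in both directions between lineages.

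Of 7 transcription factors of the class II promoter in the table, 3 passed, all lower in luminal libraries. Rfx5, the DNA-binding subunit of RFX, stood at 47.8 ± 6.5 normalized counts in luminal and 46.8 ± 8.6 in basal libraries (SD, n = 15 each; log2 difference 0.06, SE 0.11, adjusted p = 0.679). Rfxap, another RFX subunit, was lower in luminal libraries by 0.88 (SE 0.16, adjusted p = 2.15e-05). Nfya was lower by 0.59 (SE 0.24, adjusted p = 0.041) and Creb1 by 0.20 (SE 0.08, adjusted p = 0.0412). Rfxank, Nfyb and Nfyc did not pass.

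The interferon-gamma input moved in both directions. Irf1, the factor that interferon induces upstream of Ciita, was lower in luminal libraries by 1.30 (SE 0.21, adjusted p = 6.22e-06), at 233.8 ± 84.2 against 579.0 ± 228.8 normalized counts (SD, n = 15 each). Socs1, a feedback inhibitor that interferon also induces, was lower (log2 difference -2.17, SE 0.45, adjusted p = 1.59e-04), with 44 reads in all luminal and 284 in all basal libraries. Over the luminal libraries Socs1 did not pass the filter on low values, so it shares the limit of Cd74 and its p-value is no evidence. The receptor chain Ifngr1 was lower by 0.28 (SE 0.10, adjusted p = 0.0128). The kinases Jak2 and Jak1 and the factor Irf2 were higher by 0.89, 0.40 and 0.75 (SE 0.14, 0.10 and 0.15).

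**Figure D3:**
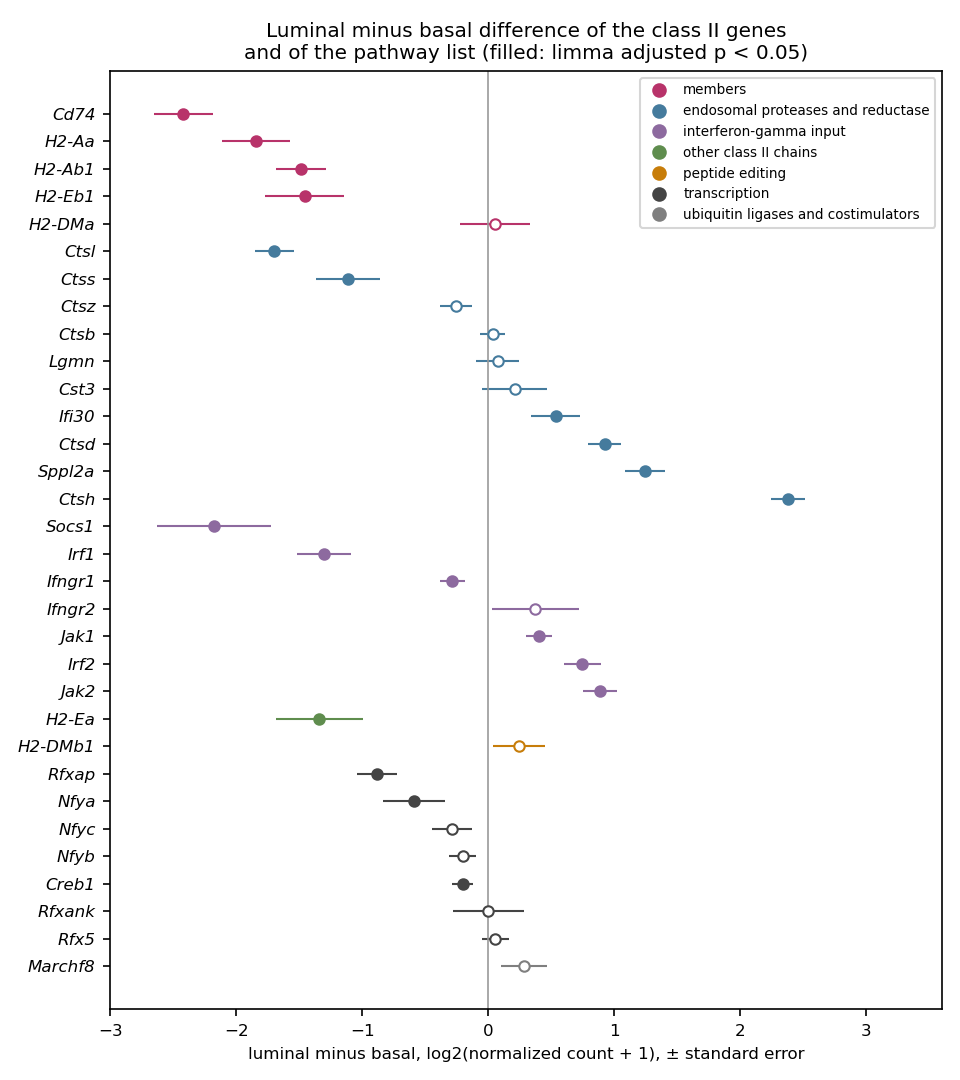
Luminal minus basal difference in log2(normalized count + 1), ± standard error, of the 5 members and the 27 pathway genes grouped by role; filled circles have a limma adjusted p below 0.05 (n = 15 libraries per lineage). Cd74, H2-Aa, H2-Ab1, H2-Eb1 and H2-Ea lie left of 0, H2-DMa and H2-DMb1 near 0, and the proteases and interferon genes on both sides.

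The next comparisons asked whether luminal Rank loss or parity changes the class II genes. No member passed in any of the 8 comparisons of genotype or parity within a lineage, or in either test of the interaction of genotype and stage, by limma, DESeq2 or edgeR. Cd74 and H2-Aa did not pass the filter on low values in luminal comparisons, and H2-Eb1 passed it in 2 of 4. Where a member did not pass it, its difference is given from the fit without that filter. Comparisons that share a group share its libraries and are not independent of each other.

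In parous luminal cells, the mean of each of the 5 members was higher in K8iΔRank than in K8imTmG libraries, and none passed the test. H2-Ab1 was 20.5, 20.6, 11.7 and 20.9 normalized counts in the 4 K8iΔRank libraries and 16.8, 10.8, 7.50, 3.20 and 6.06 in the 5 K8imTmG libraries. The groups overlapped in 1 library of each, and the log2 difference was 1.11 (SE 0.42, 95% interval 0.19 to 2.03, unadjusted p = 0.0225, limma adjusted p = 0.187). H2-Eb1 was 15.98, 2.95, 10.03 and 13.4 against 0, 5.20, 1.76, 3.20 and 4.33, so 3 of 4 K8iΔRank libraries were above all K8imTmG ones (log2 difference 1.63, SE 0.65, unadjusted p = 0.0289, limma adjusted p = 0.206). H2-Aa was 4.57, 5.90, 4.46 and 4.47 against 3.36, 2.80, 1.32, 0 and 0.87. The values 3.36 and 0 were 2 and 0 reads in 2 K8imTmG libraries where 3 reads amount to 5.04 and 9.59, so whether the groups overlap cannot be read, and 5.49% of the genes tested were apart in this direction. Its difference without the filter was 1.31 (SE 0.43, adjusted p = 0.15) and that of Cd74 was 1.41 (SE 0.52, adjusted p = 0.182). H2-DMa had a log2 difference of 0.56 (SE 0.60, adjusted p = 0.614).

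Of 10090 genes tested in parous luminal cells, 0.0991% passed, and 2 of the 3 members tested had an unadjusted p below 0.05 by limma, DESeq2 and edgeR alike, as had 19.9%, 21.7% and 20.5% of all genes. The 10 genes called were higher in K8iΔRank libraries, whereas DESeq2 called 270 higher and 341 lower and limma with array quality weights 647 and 500. Between Clec2d-low libraries alone the difference of H2-Ab1 was 1.09 (SE 0.31, adjusted p = 0.083) and that of H2-Eb1 1.17 (SE 0.55, adjusted p = 0.208). The summed level of the 6 leukocyte markers was 31.2 ± 5.7 in K8iΔRank (SD, n = 4) and 31.3 ± 16.1 in K8imTmG libraries (SD, n = 5). Endothelial markers summed to 27.0 to 60.4 in the K8iΔRank and 8.82 to 48.7 in the K8imTmG libraries, and their part in the difference was not tested.

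In virgin luminal cells the differences of the members had no common direction, and none passed. H2-Ab1 was 7.57, 11.5 and 7.93 normalized counts in K8iΔRank and 10.3, 17.8 and 6.62 in K8imTmG libraries (log2 difference -0.25, SE 0.50, adjusted p = 0.807). H2-DMa had a difference of -0.35 (SE 0.43, adjusted p = 0.666). H2-Aa was 8.83, 11.5 and 5.28 against 2.56, 3.15 and 0, and H2-Eb1 7.57, 5.77 and 6.61 against 3.20, 3.15 and 5.15, both without overlap in value, as were 12.8% of the genes tested in this direction. These values rest on 4 to 7 against 0 to 6 reads for H2-Aa and 3 to 6 against 5 to 7 for H2-Eb1. In the library at 5.77, 1 read was worth 1.92 normalized counts, so whether the H2-Eb1 groups overlap cannot be read. Without the filter their differences were 1.90 (SE 0.63, adjusted p = 0.137) and 0.68 (SE 0.45, adjusted p = 0.42), and that of Cd74 was -0.26 (SE 0.46, adjusted p = 0.79). Of 10066 genes tested, 0.984% passed. Other markers differed in the same libraries. Basal-cell markers summed to 55.8 to 198.1 normalized counts in K8iΔRank and 42.5 to 48.7 in K8imTmG libraries, without overlap, and fibroblast markers to 713.4 to 852.1 and 244.8 to 956.7. Of the fibroblast markers, 4 passed the filter, with positive differences (median 1.22) of which 0 passed the test, and the part of these cells in the class II values was not tested. The K8iΔRank libraries were all Clec2d-high, of 814455 to 1158036 reads, and the K8imTmG libraries all Clec2d-low, of 1862812 to 2422876 reads, so genotype and this split cannot be told apart.

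In basal cells, which keep Rank in both genotypes, the mean of H2-Ab1 was higher in K8iΔRank libraries at either stage, and the difference did not pass the test. Virgin libraries held 47.3, 27.3, 27.8 and 47.3 normalized counts in K8iΔRank and 27.3, 20.7 and 10.9 in K8imTmG mice (log2 difference 0.94, SE 0.40, unadjusted p = 0.0416, limma adjusted p = 0.154). Parous libraries held 61.8, 58.2, 41.4 and 44.0 against 41.9, 26.7, 35.8 and 22.8 (log2 difference 0.69, SE 0.26, unadjusted p = 0.0205, limma adjusted p = 0.153). An unadjusted p below 0.05 was reached by 29.3% of all genes in virgin and 22.6% in parous basal cells. The ranges met or overlapped by 1 library at each stage. H2-Eb1 in parous cells was 32.2, 32.7, 23.3 and 21.2 in K8iΔRank and 41.9, 2.67, 7.96 and 7.96 in K8imTmG libraries, and the log2 difference of 1.39 (SE 0.59, adjusted p = 0.189) included 1 K8imTmG library above all others. Between Clec2d-high parous basal libraries the differences were 0.69 for H2-Ab1 (adjusted p = 0.597) and 1.37 for H2-Eb1 (adjusted p = 0.685).

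Cd74 in virgin basal cells was 55.4, 26.05, 29.1 and 39.7 normalized counts in K8iΔRank and 25.9, 20.7 and 16.3 in K8imTmG libraries, without overlap in value, as were 14.9% of the genes tested in this direction (log2 difference 0.78, SE 0.36, adjusted p = 0.181). H2-Aa went the other way in the same libraries, 11.5, 13.02, 9.48 and 13.96 against 17.2, 20.7 and 16.3, also without overlap in value, as were 13.4% of the genes tested in that direction (log2 difference -0.56, SE 0.39, adjusted p = 0.358). The K8imTmG values rest on 3 to 18 reads for Cd74 and 3 to 12 for H2-Aa. In the K8imTmG libraries at 25.9 for Cd74 and 16.3 for H2-Aa, 1 read was worth 1.44 and 5.43 normalized counts. Whether the groups overlap thus cannot be read for either gene. H2-Eb1 and H2-DMa had differences of 0.76 (SE 0.55, adjusted p = 0.386) and 0.36 (SE 0.64, adjusted p = 0.74). Of all genes, 8.99% passed in virgin and 0.906% in parous basal cells. The virgin basal groups lay on opposite sides of the Clec2d split, so genotype and the split cannot be told apart there, and the 6-marker leukocyte sum was 200.3 ± 62.6 in K8imTmG (SD, n = 3) and 95.1 ± 15.4 in K8iΔRank libraries (SD, n = 4).

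Parity comparisons in luminal cells had an unadjusted p below 0.05 for H2-DMa in K8imTmG and H2-Ab1 in K8iΔRank mice among the members that passed the filter, as for 21.7% and 33% of all genes. In K8imTmG mice H2-DMa was 16.02, 14.2 and 33.1 normalized counts in virgin and 11.8, 3.599, 2.65, 19.2 and 3.03 in parous luminal libraries (log2 difference -1.55, SE 0.64, unadjusted p = 0.0347, adjusted p = 0.196). The 2 higher parous libraries, at 11.8 and 19.2, were the Clec2d-high ones. Between Clec2d-low libraries, 3 virgin and 3 parous, H2-DMa fell by 2.34 (SE 0.41, adjusted p = 0.017), and 1285 of 10014 genes passed. These parous libraries were all deeper than the virgin ones, at 2781750 to 2988541 against 1862812 to 2422876 reads. H2-DMa was lower in deeper libraries of a group (r = -0.78), so parity and depth cannot be told apart here. H2-Ab1 had a difference of -0.41 (SE 0.53, adjusted p = 0.682), and Cd74 was 6.41, 6.82 and 5.15 in virgin against 1.68, 4.80, 1.76, 0 and 3.03 in parous libraries (difference without the filter -1.34, SE 0.54, adjusted p = 0.195). The values 1.68 and 0 were 1 and 0 reads in 2 libraries where 3 reads amount to 5.04 and 9.59 normalized counts, the second above every virgin value, so whether the groups overlap cannot be read. In this direction 9.86% of the genes tested were apart. Of all genes, 2.2% passed. In K8iΔRank mice H2-Ab1 was 7.57, 11.5 and 7.93 in virgin and 20.5, 20.6, 11.7 and 20.9 in parous luminal libraries, without overlap in value, as were 16% of the genes tested in this direction. In the virgin library at 11.5, 1 read was worth 1.92 normalized counts, so whether the groups overlap cannot be read. H2-Ab1 there had the lowest adjusted p of any member over all libraries of these comparisons (log2 difference 0.94, SE 0.35, 95% interval 0.18 to 1.71, unadjusted p = 0.0201, limma adjusted p = 0.0851), and 16% of all genes were called. These virgin and parous libraries lay on opposite sides of the Clec2d split, so parity and the split cannot be told apart. H2-DMa and H2-Eb1 there had differences of -0.64 (SE 0.45, adjusted p = 0.349) and 0.42 (SE 0.54, adjusted p = 0.628).

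In basal cells no parity difference of a member passed. They ran from -0.69 (H2-Aa, SE 0.64) to 0.72 (H2-Ab1, SE 0.41) in K8imTmG and from -0.09 (Cd74, SE 0.30) to 0.49 (H2-Eb1, SE 0.31) in K8iΔRank mice, and none of the 5 members had an unadjusted p below 0.05 in either. Without 1 of the parous K8imTmG libraries the H2-Aa difference was -0.136, and -0.995 without another. The 95% intervals of Cd74 were -0.75 to 1.27 and -0.75 to 0.56. No gene passed with limma in these 2 comparisons (0% of 10538 and of 10525), with 969 and 1036 at an unadjusted p below 0.05. DESeq2 called 44 and 91 genes and edgeR 8 and 0. Endothelial marker sums in the same libraries were 217.4 to 1220 in virgin and 87.6 to 195.3 in parous basal cells.

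The interaction of genotype and stage had an estimate of 1.36 for luminal H2-Ab1 (SE 0.64, 95% interval -0.00 to 2.72, unadjusted p = 0.0507, adjusted p = 0.154), where 12.9% of all genes passed. Luminal H2-DMa had 0.91 (SE 0.83, adjusted p = 0.465). In basal cells the estimates lay between -0.35 (Cd74, SE 0.55) and 1.15 (H2-Aa, SE 0.72), and no gene passed (0% of 10607, with 1082 at an unadjusted p below 0.05, 18 called by DESeq2 and 0 by edgeR).

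**Figure D4:**
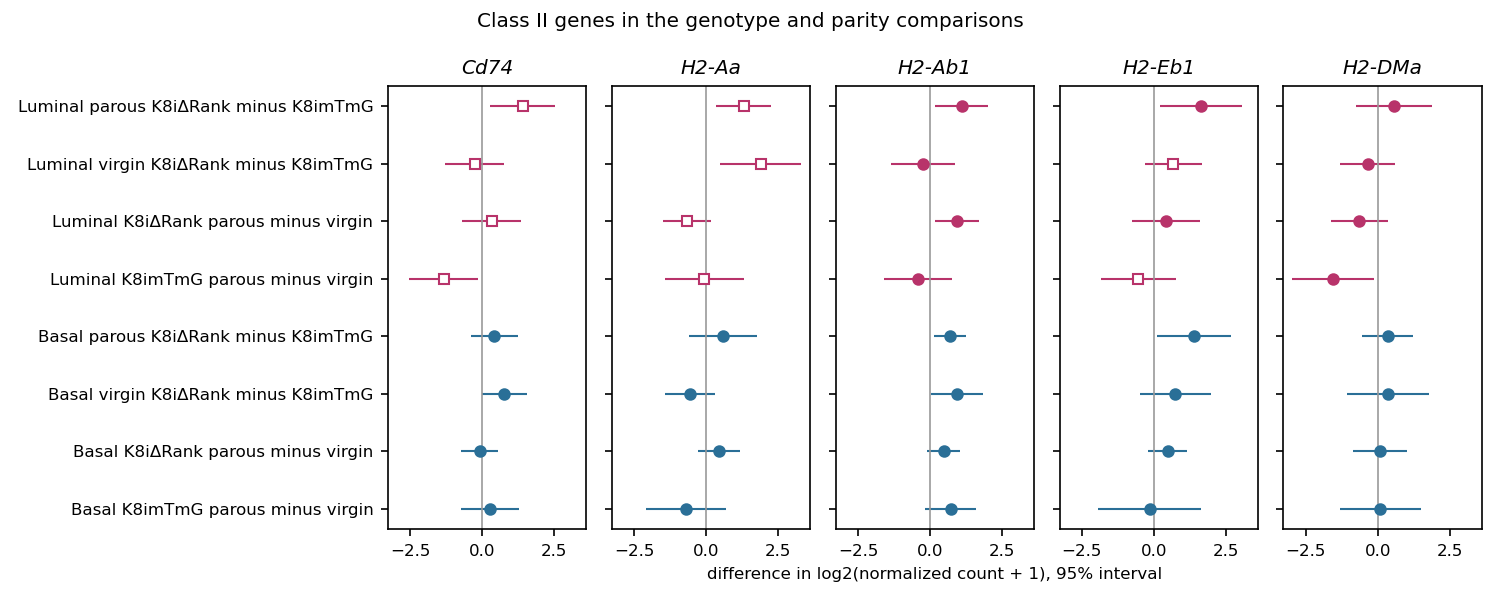
Difference in log2(normalized count + 1), with 95% interval, of each member in the 4 genotype and 4 parity comparisons; magenta is luminal and blue is basal, and open squares are luminal values from the fit without a filter on low values. The comparisons share groups, and no member passed an adjusted p of 0.05 in any of them.

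Pathway genes passed in a few of these comparisons. Among virgin basal libraries 4 of the 27 did, where 8.99% of all genes passed. Ctsd was higher in K8iΔRank by 1.06 (SE 0.28, adjusted p = 0.0467), and Ctsl, Ctss and Cst3 (cystatin C, a cathepsin inhibitor) were lower, with log2 differences of -1.17, -1.504 and -2.17 (SE 0.20, 0.39 and 0.44). Of the 7 leukocyte markers tested there, the myeloid marker Lyz2 passed and was lower as well (log2 difference -1.70, SE 0.46, adjusted p = 0.0479), while Mrc1 and C1qa had differences of -1.99 and -1.80 (adjusted p = 0.0585 and 0.0823). Cd68 and Srgn had differences of -1.38 and -1.14, whereas Trbc2 and Ptpn6 went the other way (0.70 and 0.75), and none of these passed. The part of these cells was not tested, and genotype and the Clec2d split cannot be told apart in these libraries. With 1 library left out, Ctsl passed in 7 of 7 fits, Cst3 in 3, Ctsd in 2 and Ctss in 1.

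In luminal cells Ctsz was lower in virgin K8iΔRank than in virgin K8imTmG libraries by 1.32 (SE 0.26, adjusted p = 0.0488), a call lost in all 6 fits without 1 library, with a pseudocount of 0.5 and without the filter. It was higher in parous than in virgin K8iΔRank libraries by 1.15 (SE 0.21, adjusted p = 0.00782), in 7 of 7 such fits. Ctsd was lower in parous than in virgin K8imTmG luminal libraries by 1.30 (SE 0.28, adjusted p = 0.0453), a call that held in 1 of 8 such fits and was lost after quantile normalization. In the luminal interaction 3 of 25 passed, beside 12.9% of all genes. These were Ctsz, Ctsd and Jak1, with 2.04, 1.93 and 1.10 (SE 0.35, 0.35 and 0.30), in 15, 15 and 10 of 15 such fits. In the parous genotype and basal parity comparisons 0 pathway genes passed.

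By group mean, the luminal groups ranked below the basal ones for 4 members. Of these, Cd74, H2-Aa and H2-Eb1 were kept in the table through basal libraries, so their order is a description. The shares of all genes with such an order, or with neighbouring groups apart, were not counted. Cd74 ran from 2.25 ± 1.78 (SD, n = 5) in parous K8imTmG luminal through 6.99 ± 3.07 (SD, n = 4) in parous K8iΔRank luminal libraries, and from 20.9 ± 4.8 (SD, n = 3) in virgin K8imTmG basal to 37.6 ± 13.2 (SD, n = 4) in virgin K8iΔRank basal libraries. The ranges of neighbouring groups overlapped except at the step from luminal to basal. H2-Ab1 ran from 8.87 ± 5.21 (SD, n = 5) in parous K8imTmG luminal to 51.3 ± 10.2 (SD, n = 4) in parous K8iΔRank basal libraries, and all its neighbours overlapped. H2-Eb1 ran from 2.90 ± 2.07 (SD, n = 5) to 27.3 ± 5.9 (SD, n = 4) between the same groups, and H2-Aa from 1.67 ± 1.39 (SD, n = 5) in parous K8imTmG luminal to 18.1 ± 2.3 (SD, n = 3) in virgin K8imTmG basal libraries. Neighbours were also apart for H2-Aa between virgin K8imTmG and parous K8iΔRank luminal libraries. For H2-Eb1 the virgin luminal genotypes were apart in value, but at 3 to 6 and 5 to 7 reads an overlap cannot be read. The parous K8imTmG luminal group was the lowest for all 5 members. The highest group of H2-DMa was virgin K8imTmG luminal, at 21.1 ± 10.5 (SD, n = 3), and its lowest was 8.04 ± 7.27 (SD, n = 5).

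Over the 30 libraries the members were alike apart from H2-DMa, as a description of points that share lineage, mouse and depth. Pearson's r of log2 levels was 0.90 between Cd74 and H2-Ab1, 0.80 between Cd74 and H2-Aa and 0.65 to 0.76 among the other pairs of the 4, against 0.10 to 0.16 between H2-DMa and each of them. With group means subtracted, r stayed at 0.72 for Cd74 with H2-Ab1 and 0.66 for H2-Aa with H2-Ab1, and was 0.10 or less for H2-Eb1 with H2-Aa and with H2-Ab1. The genes most like Cd74 over all libraries were Tes, Mvb12b, Mia, Bgn and Gng11 (r 0.92 to 0.95), and those most like H2-Ab1 were Npr2, Mia, Npr1, Micu2 and Pgf (r 0.86 to 0.87). For H2-Aa they were Tacc1, Tnfaip6, Ctnnal1, Col27a1 and Colgalt2 (r 0.84 to 0.87), and for H2-Eb1 Wipf3, Gm42528, Apbb1, Parp8 and Ahi1 (r 0.78 to 0.83).

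With group means subtracted, the gene most like H2-Aa was the macrophage mannose receptor Mrc1 (r = 0.74), and Cd74 was most like Steap3 (r = 0.76). H2-DMa was most like Retreg3, Ociad1, Atp5l, Tle5 and A230059L01Rik (r 0.86 to 0.89). Its level was lower in deeper libraries of a group, with r = -0.78 against the log2 number of reads over 30 libraries, whereas that r was 0.10 to 0.31 for the other 4 members. The part of depth in the differences of H2-DMa was not tested.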

How the data were processed

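The authors sequenced QuantSeq 3′ libraries with unique molecular identifiers, deduplicated them with UMI-tools, aligned them to GRCm39 with Bowtie2 and counted genes of Gencode vM26. The deposited signal values are gene counts divided by 1 DESeq2 size factor per library, for genes above a normalized count of 10 in 25% of samples. In each library 100% of values were whole multiples of 1 step within 0.01 read, so reads were recovered. A count of 0 allows 3 reads, a floor that covers counting error only, whereas the intervals are limma's, from the spread between mice. Replicates were single mice, and their reads differed in all 43 pairs (chi-square per degree of freedom at least 2.67).

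Groups were compared with limma 3.58.1 (mean-variance trend) on log2(normalized count + 1), which understates changes of low genes, for genes above 10 in 25% of the libraries compared. P-values were adjusted by Benjamini-Hochberg over all genes tested. Each fit held 2 groups, the lineage fit 8 groups and the interactions 4. DESeq2 1.42.0 and edgeR 4.0.16 on recovered reads, the alternatives of the closing section and two-sided permutation tests (100000 resamples, exact under 10 libraries) were run in R 4.3.3 and Python with scipy. A block by mouse rests on the 13 mice with both lineages, whose paired libraries correlated by -0.24 to 0.34 (median 0.09) after group means were subtracted.

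All members, pathway genes called in a comparison and the 5 genes most correlated with each member were named. The pathway and marker lists, like the members, were chosen with earlier results of these data known, and the motif letters with the promoter sequences in view. 1 gene of the pathway list is not reported here. Tests were tried on simulated data. Coordinates of genes are GENCODE vM39 and promoters are RefSeq GRCm38.p6.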

Additional observations from a re-analysis of the deposited data

Results flagged for a closer look

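In groups of 4 or 5 libraries, 25 sets of values (a member in a group) were checked for a library set apart from the others, and 3 had one, where chance gives about 5% of sets. In parous K8iΔRank luminal cells H2-Aa was 5.90 normalized counts in 1 library against 4.46 to 4.57 in the other 3, with 12 reads against 8 to 12. In the same group H2-Ab1 was 11.7 in 1 library against 20.5 to 20.9. In parous K8imTmG basal cells H2-Eb1 was 41.9 in 1 library against 2.67 to 7.96, resting on 20 reads there and 1 to 7 in the others.

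The genotype differences of H2-Aa had opposite signs in virgin luminal and virgin basal cells. All K8iΔRank luminal libraries were above all K8imTmG ones in value (log2 difference 1.90 without the filter on low values), at 4 to 7 against 0 to 6 reads. The same held for 12.8% of the genes tested. All K8iΔRank basal libraries were below all K8imTmG ones in value (-0.56), as were 13.4% of the genes tested. The lowest K8imTmG basal value was 3 reads worth 5.43 normalized counts each, so whether the basal groups overlap cannot be read. The difference between the lineages was not tested, neither effect passed its own test, and in both lineages genotype cannot be told apart from the Clec2d split.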

How the results depend on the processing

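Members passing the lineage comparison, 3 of them kept in the table through basal libraries, stayed at 4 whichever mouse was left out, with the replicate block by mouse (log2 difference -2.42 for Cd74) and in the same 13 mice without the block. A filter at a mean of 50 removed all of them (0), and 2 passed between Clec2d-high libraries, where 2348 of 10749 genes passed. In the genotype, parity and interaction comparisons 0 members passed whichever replicate was left out. With array quality weights 2 passed between parous and virgin K8imTmG luminal libraries (H2-Ab1 -1.02, H2-DMa -1.66), where 3993 of 10279 genes passed. In the luminal interaction 1 passed with these weights (H2-Ab1 1.92), where 2671 of 10262 genes did. Between Clec2d-low libraries 1 passed for K8imTmG luminal parity, where 1285 of 10014 genes did. The cause was not tested. The block changed no other call.

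Of 831 recomputed differences and correlations 47 changed sign, 26 of them for H2-DMa, and none of these was called. With array weights the sign turned for basal Cd74 in K8iΔRank parity (0.21) and interaction (0.11), basal H2-Eb1 in K8imTmG parity (0.0657), basal H2-Ab1 (0.17) and H2-DMa (0.52) in the interaction, and H2-DMa between virgin genotypes (basal -0.14, luminal 0.0093). DESeq2 and edgeR turned basal H2-DMa in K8iΔRank parity (-0.0639 and -0.0663) and H2-Eb1 in K8imTmG parity (0.26 and 0.23), and edgeR the lineage difference of H2-DMa (-0.0012). Between Clec2d-low libraries it was -0.47, and Cd74 in basal K8iΔRank parity 0.0416. Against leukocyte markers, r turned without the 2 farthest libraries for luminal H2-Ab1 (-0.0252) and basal Cd74 (0.11), H2-Eb1 (0.0086) and H2-DMa (0.30), without Lcp1 and Ptpn6 for luminal H2-DMa (-0.0092), and within Clec2d-low libraries for luminal H2-Eb1 (0.0938) and basal Cd74 (0.25), H2-Aa (-0.27) and H2-DMa (0.32), and within Clec2d-high libraries for basal Cd74 (0.10). The correlations within Clec2d sides and without Lcp1 and Ptpn6 were chosen after seeing the data. The planned use of Ptprc alone was not run.

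With 1 mouse left out, differences ranged from -0.29 to 0.11 (Cd74) and -0.22 to 0.38 (H2-DMa) in basal K8iΔRank parity, -0.39 to 0.47 (H2-DMa) and -0.82 to 0.36 (H2-Eb1) in basal K8imTmG parity, -0.52 to 0.11 (H2-Ab1) and -0.40 to 0.46 (H2-DMa) in the basal interaction, -0.12 to 0.74 (H2-DMa) between virgin basal genotypes, -0.0552 to 0.13 (H2-DMa) between lineages, and -0.56 to 0.0905 (H2-Ab1) and -0.57 to 0.0164 (H2-DMa) between virgin luminal genotypes. Counts of all genes called moved more: over the alternatives they ran from 2348 to 6508 between lineages (6197 as reported), 0 to 2514 (99) and 0 to 1147 (10) between virgin and parous luminal genotypes, 3 to 3993 (226) and 222 to 1857 (1643) with parity in K8imTmG and K8iΔRank luminal cells, 336 to 2671 (1326) in the luminal interaction, 281 to 1803 (954) and 0 to 2572 (96) between virgin and parous basal genotypes, and 0 to 44, 0 to 214 and 0 to 18 (all 0) in basal parity and interaction. Low read numbers limit all luminal class II values.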
